A study of Mus musculus with 4 samples.

Results

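The integrin, laminin and collagen genes are described here as they were expressed in mouse intestinal organoids. They were taken by symbol from the array's annotation: every gene whose symbol starts with Itga or Itgb, with Lama, Lamb or Lamc and a digit, or with Col, a number, the letter a and a number. This rule took 81 of the 18193 genes measured, which were 24 integrin chains, 10 laminin chains, 42 collagen chains and 5 other genes whose symbols begin in the same way (Itgb2l, Itgb1bp1, Itgb1bp2, Itgb3bp and Itgbl1). The organoids carried floxed Apc alleles (Apc fl/fl) and were grown in Matrigel. They were left untreated or were given 4-hydroxytamoxifen (4OHT) for 24 h to recombine Apc, and RNA was taken on day 4 or on day 6. A single array stands for untreated organoids and a single one for 4OHT organoids on each day, which makes 4 groups of 1 array. The 4OHT arrays are described as Apc-deficient in the labels, which do not say which promoter drives the recombinase, and all 4 arrays come from organoids with the floxed alleles, so an effect of 4OHT itself cannot be told apart from that of Apc recombination.

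Integrins are receptors made of an alpha and a beta chain that hold cells to the matrix around them. Laminins are trimers of an alpha, a beta and a gamma chain, and with type IV collagen they build the basement membrane under an epithelium. In the gut, epithelial cells make much of their own laminin, whereas most collagen chains come from the mesenchyme, which organoids lack. Matrigel is itself a mouse tumour basement membrane, rich in laminin and type IV collagen protein. The arrays measured only the RNA of the cells. Where Apc is lost, beta-catenin is no longer degraded and Wnt target genes are transcribed.

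A gene is given by its brightest probe set, as the deposited intensity on each array. Differences are on the scale of log2(intensity + 16), which understates the change of dim genes. Of the 81 genes, 46 reached an intensity of 20.9, which is the median of all values, on at least 1 array, 20 of them on all 4, and only these 46 were tested. The 35 others, which were 24 collagen, 7 integrin and 3 laminin chains and Itgbl1, lay under it on every array in the probe set used. Among them were all 6 type IV collagen chains (Col4a1 to Col4a6), Col1a2 and Col3a1 of the interstitial fibrils, the laminin chains Lama1, Lama4 and Lamb1, and the integrin chains Itga4, Itga5, Itga8, Itgae, Itgam, Itgb2 and Itgb8. The 46 comprised 17 of the 24 integrin chains, 7 of the 10 laminin chains, 18 of the 42 collagen chains and 4 of the 5 other genes. Col4a1, a main chain of type IV collagen, gave intensities of 11.8 and 19.8 on the untreated and 4OHT arrays of day 4 and 8.43 and 9.80 on those of day 6. All 4 values lay under the median. Its partner Col4a2 gave 19.4 and 18.4 at day 4 and 6.23 and 10.8 at day 6, also under the median throughout.

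**Figure D1:**
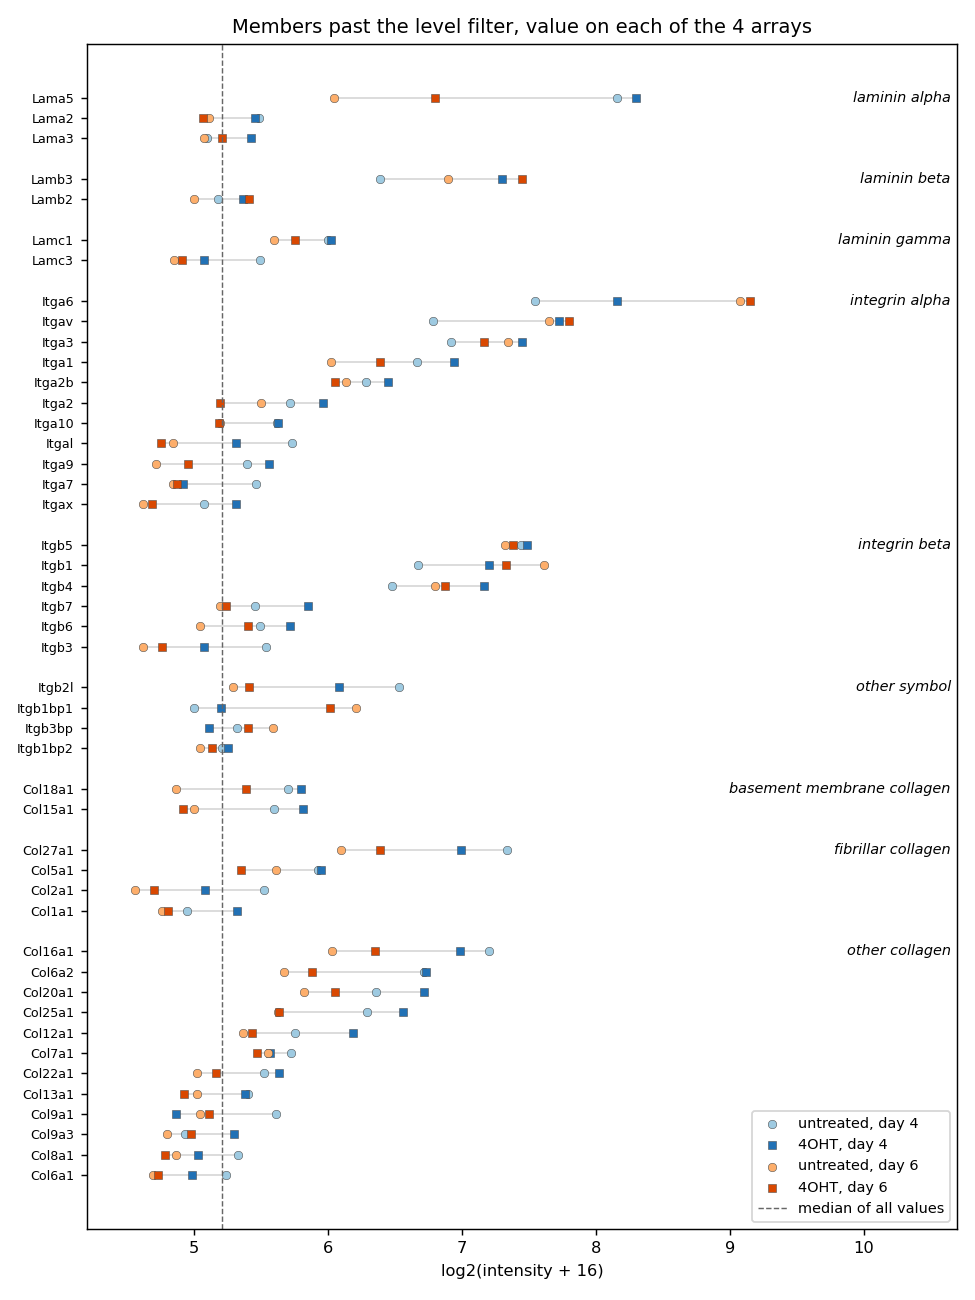
Value of each of the 46 genes past the level filter on each of the 4 arrays (log2 of intensity + 16), grouped by kind of chain. Circles are untreated and squares 4OHT, blue is day 4 and orange is day 6; the dashed line is the median of all values, and each point is 1 array. Itga6 and Lama5 span the widest ranges, Itga6 with both day 6 arrays high and Lama5 with both low.

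The labelled intestinal epithelium was checked by its markers. The 8 epithelial markers (Epcam, Cdh1, Vil1, Krt8, Krt18, Krt19, Krt20 and Cldn7) all passed the level filter, and the highest value of each lay between 1451 and 9544. Of 10 fibroblast and muscle markers, 7 passed, with highest values of 12.1 to 59.4 over the list and a summed intensity of 280 and 267 at day 4 (untreated and 4OHT) and 148 and 146 at day 6. Of 5 endothelial markers, 4 passed, with a sum of 120, 94.6, 55.0 and 61.1 on the same arrays in that order. Of 8 measured immune markers, 7 passed, and their sum of 1468, 2316, 659 and 1984 was mostly Lyz2, a lysozyme. Ptprc, which marks leukocytes, stayed at or under 10.9. In such bulk RNA, fewer cells of a type and less RNA per cell cannot be told apart. The arrays of the different days also differed technically. The mean log2 level of the 18 hybridization spike-in probe sets was 12.3 and 12.0 at day 4 and 10.1 and 10.9 at day 6 (untreated and 4OHT), and that of the 24 poly-A spike-in probe sets was 11.6, 11.2, 8.73 and 10.1. The excess of the 3' over the 5' probe set of Actb was 2.96, 3.90, 1.72 and 2.34 on the log2 scale, higher with 4OHT on both days. The part of these array differences in the results below was not tested.

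No integrin, laminin or collagen gene passed the test for 4OHT over both days. The test was limma with 4OHT and day as additive terms, with p-values adjusted over all 13192 genes past the filter and a threshold of 0.05. Of the 46 genes, 0 rose and 0 fell, against 0.97% of all genes that rose and 2.25% that fell (3.22% in either direction, 425 genes). At an unadjusted p under 0.05 there were 2 of the 46, Lamb3 and Itgav, both higher with 4OHT, against 1835 of all genes. The labels do not say that the arrays came from separate cultures, so these p-values measure only the spread between 4 arrays, which may be technical. Each gene had 1 residual degree of freedom, and most of its error came from the spread that limma pools over genes (prior SD 0.215 in log2, prior degrees of freedom 15.2). The residual of a gene is the difference between its 4OHT effects on the 2 days. A real change of the 4OHT effect between the days is therefore counted as error. None of the 46 differed 2-fold between the 4OHT and the untreated array of a day. Past 2-fold at day 4 were 1% of all genes upward and 1.22% downward, and at day 6 0.879% and 2.97%. The differences of the 46 ran from -0.75 to 0.94 at day 4, with a median of 0.13 beside 0.06 over all genes. At day 6 they ran from -0.31 to 0.75, with a median of 0.07 beside 0.00 over all genes. With 4OHT, 23 of the 46 were higher on both days, 6 were lower on both and 17 had opposite signs. Over all genes past the filter, 32.0% were higher on both days and 26.0% lower on both.

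**Figure D2:**
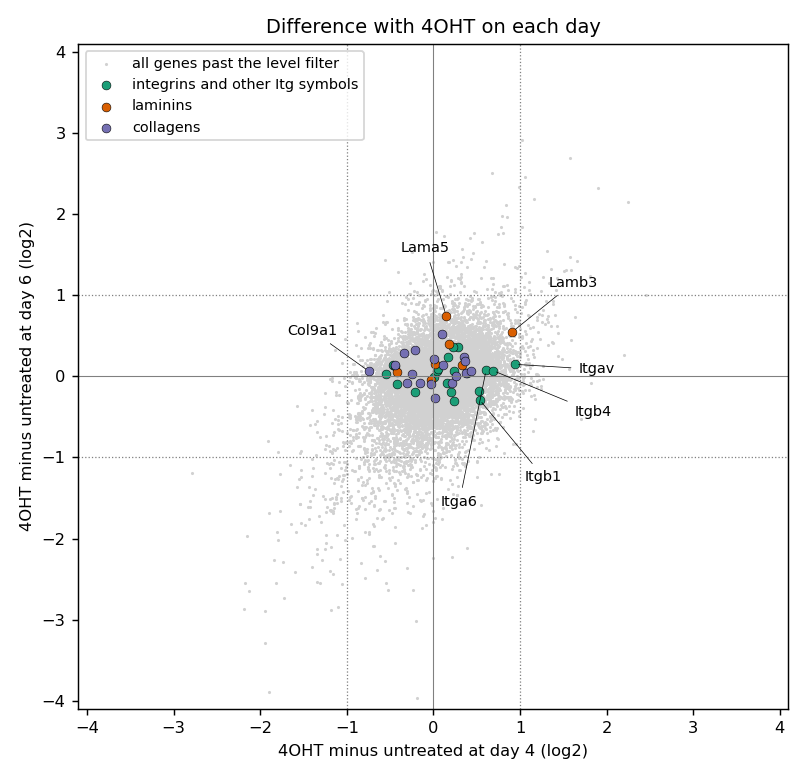
Difference between the 4OHT and the untreated array at day 4 (horizontal) and at day 6 (vertical), in log2(intensity + 16), for all 13192 genes past the level filter (grey) and the 46 integrin, laminin and collagen genes (coloured). Dotted lines mark 2-fold. All 46 lie inside them, with Lamb3 and Itgav farthest to the right and Lama5 highest.

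From day 4 to day 6, in the values as deposited, the 46 genes moved mostly down, while more of all genes moved up. By the same test, 16 of the 46 fell and 2 rose, with 28 not past the threshold, against 18.8% of all genes that fell and 35.1% that rose (53.9% in either direction). The 16 that fell were 9 collagen chains, 5 integrin chains, the laminin chain Lama5 and Itgb2l. The 2 that rose were Itga6 and Itgb1bp1. In untreated organoids 5 of the 46 (Lama5, Col27a1, Col16a1, Col6a2 and Itgb2l) were at least 2-fold lower at day 6, against 5.29% of all genes, and 2 (Itga6 and Itgb1bp1) at least 2-fold higher, against 24.1%. In 4OHT organoids 1 (Lama5) was at least 2-fold lower, against 2.69%, and 0 were at least 2-fold higher, against 16.4%. The median difference of the 46 was -0.42 in untreated and -0.39 in 4OHT organoids, and that of all genes 0.16 and 0.04. In both arms, 36 of the 46 were lower at day 6, as were 39.7% of all genes. The level filter favours this direction: 18 of the 46 passed it only through an array of day 4, and 1 (Itgb1bp1) only through one of day 6. The calls of the 6 that fell among these 18 (Itga9, Itgal, Itgax, Itgb3, Col2a1 and Col15a1), and that of Itgb1bp1, are therefore no support for a direction. Of the 27 that passed on both days, a split made after the data were seen, 10 fell and 1 rose, against 15.6% and 40.4% of the 10674 genes that did so. Without the filter, 13 of the 81 fell and 2 rose, against 11.7% and 22.4% of all 18193 genes. Of the 18 calls, 8 held under every alternative processing that tested them (Lama5, Itga6, Itgb1bp1, Itgb2l, Col6a2, Col16a1, Col25a1 and Col27a1). The 10 others (Itga1, Itga9, Itgal, Itgax, Itgb3, Col2a1, Col12a1, Col15a1, Col18a1 and Col20a1) were lost under at least 1.

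The scaling between the deposited values of day 4 and day 6 is unknown, and the size of each day difference depends on it. Centring every array on its median moved the median of all genes to 0.31 and 0.18 (untreated and 4OHT) and that of the 46 to -0.29 and -0.27, and gave 11 that fell and 4 that rose. Its 2-fold counts were 4 lower and 4 higher in untreated and 1 lower and 1 higher in 4OHT organoids. Quantile normalization moved the median of all genes to -0.13 and -0.15 and that of the 46 to -0.44 and -0.43, and gave 16 that fell and 2 that rose. Its 2-fold counts were 6 lower and 1 higher in untreated and 5 lower and 0 higher in 4OHT organoids. The median of the 46 lay 0.58 and 0.43 below that of all genes in the values as deposited (members minus all genes -0.58 and -0.43), and the same difference was -0.31 and -0.28 after quantile normalization. Without the level filter it was smaller as well: the median of all 81 was -0.31 and -0.26 and that of all 18193 genes -0.08 and -0.09, members minus all genes -0.23 and -0.16. Level moved with this result too, since most of the 46 had low intensities. For the 26 of them with a mean log2 level of 5 to 6, the median day difference was -0.40 in untreated and -0.36 in 4OHT organoids, beside -0.30 and -0.28 for all 4469 genes of that level. For the 8 with a level of 6 to 7, it was -0.65 and -0.62, beside 0.50 and 0.28 for 3396 genes. The 6 with a level of 7 to 8 had medians of 0.47 and -0.02, beside 0.71 and 0.43 for 2424 genes. The day difference of the members was lower than that of all genes at these 3 levels, least so at 5 to 6. At the other levels it was not lower in both arms. The 5 with a level under 5 had medians of -0.54 and -0.39, beside -0.49 and -0.40 for 556 genes, lower in untreated organoids only. Itga6, alone at 8 to 9, had 1.52 and 0.99, beside 0.69 and 0.42 for 1367 genes.

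**Figure D3:**
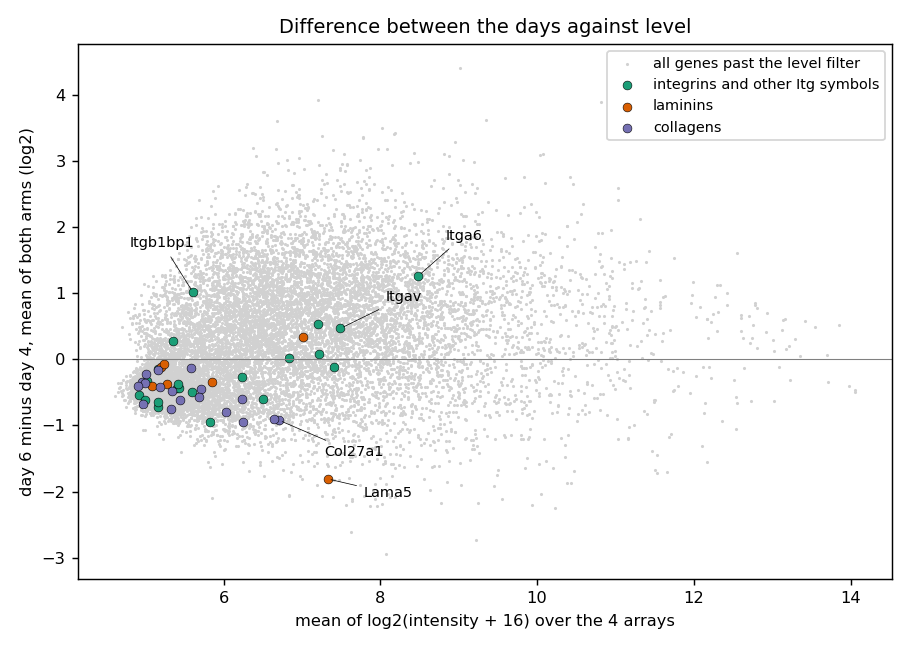
Difference between day 6 and day 4, averaged over the untreated and the 4OHT arm (log2), against the mean level over the 4 arrays, for all genes past the level filter (grey) and the 46 genes (coloured). Most of the 46 lie at the left and below 0; Lama5 lies lowest and Itga6 highest.

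Of the laminin chains, Lama5 carried the largest day difference of the 46 genes. Lama5 encodes the alpha chain of the main laminin of adult epithelial basement membranes. Its intensity was 269 on the untreated and 300 on the 4OHT array of day 4, and 50.1 and 95.2 on those of day 6. Both day 6 values lay far below both day 4 values, and on each day the 4OHT array was the higher. From day 4 to day 6 Lama5 fell by 1.81 ± 0.22 (SE) on the log2 scale (adjusted p = 8.4e-06), with a difference of -2.11 in untreated and -1.51 in 4OHT organoids. The second Lama5 probe set past the filter gave 49.0, 62.8, 19.5 and 40.0 on the 4 arrays in the same order, with differences over time of -0.87 and -0.49. Over the same interval the hybridization spike-ins differed by -2.26 in untreated and -1.07 in 4OHT organoids. The 4OHT difference of Lama5 was 0.15 at day 4 and 0.75 at day 6, and 0.45 ± 0.22 over both (adjusted p = 0.39, 95% interval -0.02 to 0.92).

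Lamb3 came closest of the 46 to the threshold for 4OHT. It encodes the beta chain of the laminin that anchors hemidesmosomes, where it is joined with the product of Lama3. Lamb3 gave 67.6 untreated and 141 with 4OHT at day 4, and 103 and 158 at day 6. Both 4OHT arrays lay above both untreated arrays. The difference was 0.91 at day 4 and 0.55 at day 6, a 1.88-fold and a 1.46-fold higher value on the log2(intensity + 16) scale, and 0.73 ± 0.21 over both days (adjusted p = 0.083, 95% interval 0.28 to 1.18). It passed under 1 of the alternatives, that of averaging a gene's probe sets, where its own value was the same and its adjusted p was 0.042 among fewer genes. Over all the alternatives its adjusted p ran from 0.042 to 0.29. A single probe set measured it.

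The stretches around the transcription starts of these 2 laminin genes are shown because they carry the largest day difference and the largest 4OHT difference over both days. Each runs from 250 bases before to 50 after a RefSeq start (GRCm38.p6), 5′ to 3′ on the gene's strand, with every CG dinucleotide in capitals. The Lama5 window is chr2:180225810-180226109 on the minus strand and the Lamb3 window, for the first of its 2 starts, is chr1:193301744-193302043 on the plus strand.
Lama5: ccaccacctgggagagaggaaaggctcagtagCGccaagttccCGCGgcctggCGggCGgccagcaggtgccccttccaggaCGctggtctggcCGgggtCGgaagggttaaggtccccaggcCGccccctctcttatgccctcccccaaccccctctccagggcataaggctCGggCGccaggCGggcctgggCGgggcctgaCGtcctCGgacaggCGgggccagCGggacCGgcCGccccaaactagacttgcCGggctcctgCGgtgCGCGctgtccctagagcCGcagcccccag
Lamb3: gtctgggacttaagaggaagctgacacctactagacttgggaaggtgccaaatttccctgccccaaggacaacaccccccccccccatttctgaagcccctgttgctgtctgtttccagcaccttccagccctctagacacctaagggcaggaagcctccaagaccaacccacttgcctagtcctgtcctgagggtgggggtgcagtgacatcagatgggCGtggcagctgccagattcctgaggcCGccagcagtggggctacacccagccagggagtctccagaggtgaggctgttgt
The Lama5 window held 24 CG dinucleotides and 72.7% G or C, the Lamb3 window 2 and 59.3%. The window at the second Lamb3 start (chr1:193301993-193302292) held 5 and 59.3%. The median over all 32851 promoters of the table was 7 CG dinucleotides and 52.7%, and over the 65 promoters of 59 of the 81 genes 11 and 58.7%. Neither ATCAAAG, the motif of the TCF/LEF partners of beta-catenin, nor TGANTCA, the AP-1 motif, was found in these 3 windows on either strand. ATCAAAG was found in 3.73% of all promoters and in 1.54% of the 65, in that of Col9a2 alone. TGANTCA was found in 7.81% and 6.15%, in those of Col6a1, Itga3, Itga9 and Itgax. A motif that is not in these windows says nothing of the factor elsewhere.

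The 5 other laminin chains past the filter passed neither test. Lama3, the alpha partner of Lamb3, gave 18.2 untreated and 27.01 with 4OHT at day 4 and 17.6 and 21.1 at day 6, a 4OHT difference of 0.24 ± 0.21 (adjusted p = 0.71). Lamb2, a beta chain of many adult basement membranes, gave 20.2 and 25.2, then 16.1 and 26.5, a difference of 0.29 ± 0.21 (adjusted p = 0.61). In both, the 4OHT array was the higher on each day, by less than the error of the fit allows to call. Lamc1, the gamma chain that most laminins share, gave 48.1 and 49.1 at day 4 and 32.4 and 38.0 at day 6, and differed from day to day by -0.34 ± 0.21 (adjusted p = 0.18). Lamc3 gave 29.0 and 17.6, then 12.9 and 14.1, and was highest on the untreated array of day 4. Lama2, the alpha chain known from muscle, gave 28.8 and 27.9, then 18.6 and 17.6, with a 4OHT difference of -0.04 ± 0.21 (adjusted p = 0.97).

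Itga6 was the integrin chain with the largest day difference. It pairs with Itgb4 in hemidesmosomes and with Itgb1 elsewhere to bind laminin. Itga6 gave 171 untreated and 270 with 4OHT at day 4, and 523 and 552 at day 6. Both day 6 arrays lay above both day 4 arrays. Itga6 rose from day 4 to day 6 by 1.26 ± 0.22 (adjusted p = 0.00019), by 1.52 in untreated and by 0.99 in 4OHT organoids. Over the alternatives its day effect ran from 0.68, after quantile normalization, to 2.25, with the second probe set in place of the first. Its second probe set gave 132 and 127 at day 4 and 628 and 726 at day 6, with day differences of 2.12 and 2.38. The 4OHT difference of the first probe set was 0.61 at day 4 and 0.08 at day 6 (0.34 ± 0.22 over both, adjusted p = 0.55, 95% interval -0.12 to 0.80). That of the second was -0.05 and 0.20, so the probe sets did not share a direction at day 4. Of the 8 epithelial markers, 6 also rose over time by the same test and 0 fell, against 35.1% and 18.8% of all genes. The median day effect of these markers was 1.18.

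The beta partners of Itga6 did not pass either test. Itgb4 gave 73.3 untreated and 128 with 4OHT at day 4, and 95.5 and 101 at day 6. The 4OHT array stood above the untreated one at day 4, and the arrays of day 6 were close. Its 4OHT difference was 0.69 at day 4 and 0.07 at day 6, 0.38 ± 0.22 over both (adjusted p = 0.49, 95% interval -0.09 to 0.85), and its day effect was 0.01 ± 0.22 (adjusted p = 0.97). Itgb1, the beta chain most alpha chains can pair with, gave 85.9 and 131 at day 4 and 180 and 145 at day 6. With 4OHT it was the higher at day 4 (0.53) and the lower at day 6 (-0.29), 0.12 ± 0.23 over both (adjusted p = 0.90, 95% interval -0.37 to 0.61). The same signs appeared in its 2 other probe sets past the filter, which gave 29.6, 56.3, 199 and 155, and 20.2, 21.7, 35.1 and 25.9, on the 4 arrays. The day effect of Itgb1 was 0.54 ± 0.23 (adjusted p = 0.061), with 0.95 in untreated and 0.13 in 4OHT organoids, and it ran from -0.01, after quantile normalization, to 0.75. It passed the test under 2 of 9 alternatives, the mean of its probe sets (0.75, adjusted p = 0.0058) and median centring (0.70, adjusted p = 0.012).

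Itgav, the alpha chain of receptors for vitronectin and fibronectin, gave 94.3 untreated and 196 with 4OHT at day 4, and 185 and 206 at day 6. The untreated array of day 4 stood apart from the other 3. The 4OHT difference was 0.94 at day 4, a 1.92-fold higher value, and 0.15 at day 6, and it was 0.55 ± 0.23 over both days (adjusted p = 0.29, 95% interval 0.06 to 1.03). Its day effect was 0.47 ± 0.23 (adjusted p = 0.095), and ran from -0.09, after quantile normalization, to 0.63, after median centring, the 1 of 9 alternatives under which it passed the test (adjusted p = 0.022). A dimmer Itgav probe set gave 13.4, 24.5, 9.61 and 9.63 on the 4 arrays, higher with 4OHT at day 4 and nearly equal at day 6. Fibronectin (Fn1), a ligand of Itgav receptors named here after its values were seen, gave 35.5 and 162 at day 4 and 19.3 and 21.0 at day 6, and did not pass the test for 4OHT (0.93 ± 0.30, adjusted p = 0.12).

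The probe sets of Itga3 and Itgb5 disagreed. Itga3, which pairs with Itgb1 to bind laminin, gave 105 and 159 at day 4 and 147 and 127 at day 6 in its brightest probe set, a 4OHT difference of 0.53 and -0.18. A second gave 68.4, 47.3, 39.1 and 42.6, a difference of -0.42 and 0.09. Itgb5, a beta partner of Itgav, was nearly level in its brightest probe set, at 158, 164, 144 and 151 (4OHT effect 0.06 ± 0.21, adjusted p = 0.96). Of its other probe sets, a pair gave 13.0, 13.2, 43.5 and 17.7, and 10.9, 7.89, 48.1 and 11.7. In that pair the untreated array of day 6 stood alone, with 4OHT differences of -0.82 and -1.21 at day 6. Of the 46 genes, 16 had over 1 probe set past the filter. Their probe sets shared the sign of the 4OHT difference in 6 at day 4 and in 9 at day 6, and that of the day difference in 12 in untreated and in 13 in 4OHT organoids.

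**Figure D4:**
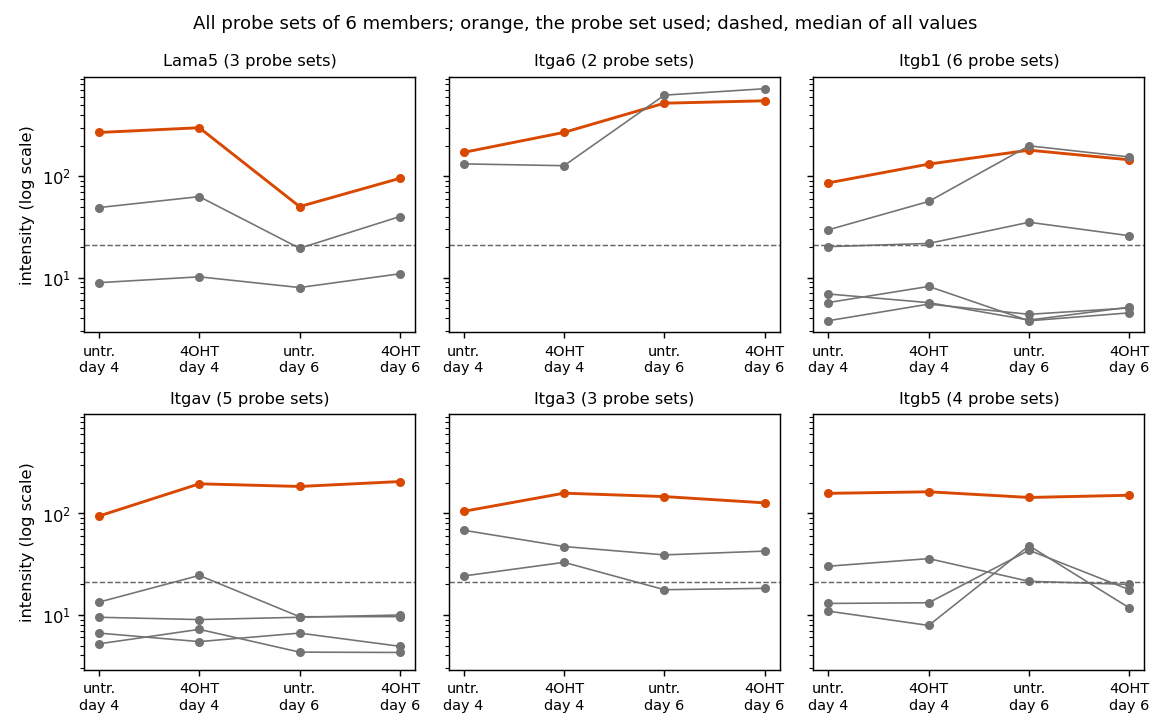
Intensity (log scale) of every probe set of 6 genes on the 4 arrays; orange marks the probe set used, grey the others, and the dashed line is the median of all values. The upper row shows Lama5, Itga6 and Itgb1, whose probe sets past the filter moved the same way over time; the lower row shows Itgav, Itga3 and Itgb5, whose probe sets did not share a direction in untreated organoids.

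The 5 integrin chains that fell from day 4 to day 6 were Itga1, Itga9, Itgal, Itgax and Itgb3. Itga1, which with Itgb1 binds collagen and laminin, gave 85.4 untreated and 107 with 4OHT at day 4 and 49.1 and 68.0 at day 6. Both day 6 values lay below both day 4 values, and it fell by 0.60 ± 0.21 (adjusted p = 0.025). It was also the higher with 4OHT on both days, by 0.28 and 0.37 (adjusted p = 0.55).

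The 4 others passed the level filter only through arrays of day 4, which favours lower values at day 6, and their values are given as a description. Itgal, the alpha chain of a leukocyte integrin, gave 37.1 and 23.8 at day 4 and 12.7 and 10.97 at day 6. Itgax, known from dendritic cells and macrophages, gave 17.7, 23.8, 8.59 and 9.80 on the 4 arrays. Itga9 gave 26.1, 31.3, 10.3 and 15.1. In these 3, each day 6 value lay under both day 4 values. Itgb3, the beta chain known from platelets and osteoclasts, gave 30.4 and 17.7 at day 4 and 8.64 and 11.1 at day 6. Itgb2, the only partner of Itgal and Itgax, and Ptprc lay under the filter. Of the immune markers 4 fell over time and 0 rose, against 18.8% and 35.1% of all genes. Of these 4, Adgre1 passed the filter only through day 4, so its call is no support for a direction. The part of immune cells in the values of these chains was not tested.

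The 6 integrin chains that remain passed neither test. Itga2, a collagen receptor chain of epithelia, gave 36.7 and 46.3 at day 4 and 29.3 and 20.6 at day 6, a 4OHT difference of 0.24 and -0.31. Itgb6, an epithelial partner of Itgav, gave 28.9 and 36.6, then 17.0 and 26.3, and was the higher with 4OHT on both days by 0.23 and 0.36 (adjusted p = 0.61). A second Itgb6 probe set gave 42.6, 23.5, 19.0 and 18.9, lower with 4OHT at day 4 (-0.57) and nearly equal at day 6, and with the mean of its probe sets the 4OHT effect was 0.0068. Itgb7, known from gut-homing lymphocytes, gave 27.9 and 41.6, then 20.6 and 21.7. Itga2b, the platelet alpha chain, gave 61.9 and 71.2, then 54.4 and 50.4, and Itga10 gave 33.2 and 33.5, then 20.6 and 20.4. Itga7, a laminin receptor chain of muscle, gave 28.2 on the untreated array of day 4 and 14.2, 12.7 and 13.3 on the others. The 4OHT effect of these 6 lay between -0.26 and 0.29 over both days.

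Of the other genes taken in by symbol, Itgb2l and Itgb1bp1 moved in opposite directions over time. Itgb1bp1 encodes a protein that binds the tail of integrin beta 1 inside the cell. It gave 16.04 untreated and 20.9 with 4OHT at day 4 and 58.0 and 48.8 at day 6, and it rose by 1.01 ± 0.21 (adjusted p = 0.001), though it passed the filter only through day 6. Itgb2l, a gene related to Itgb2 in the mouse, gave 76.4 and 51.7 at day 4 and 23.1 and 26.6 at day 6, and it fell by 0.95 ± 0.22 (adjusted p = 0.0019). In Itgb2l both day 6 values lay below both day 4 values. In Itgb1bp1 both lay above, an order that the filter favours and that is no support for a direction. The other Itgb2l probe sets past the filter changed less, at 30.5, 29.2, 23.8 and 21.7, and at 20.6, 25.9, 19.5 and 16.3, and its day effect was -0.54 with the mean of its probe sets and -0.52 with a pseudocount of 64. Itgb3bp gave 24.0, 18.5, 32.3 and 26.2, and Itgb1bp2 21.0, 22.3, 17.0 and 19.2, and neither passed a test.

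Of the 18 collagen chains past the filter, 9 fell and 0 rose over time, against 18.8% and 35.1% of all genes. Of these 9, Col2a1 and Col15a1 passed the filter only through day 4. In untreated organoids all 18 were lower at day 6, against 5823 of all 13192 genes, and in 4OHT organoids 17, against 6338. The exception was Col9a1, whose second probe set went the other way in both arms (0.08 in untreated and -0.64 in 4OHT organoids). Of those that did not pass the test, Col1a1, Col6a1, Col8a1, Col9a1, Col9a3, Col13a1 and Col22a1 also passed the filter only through day 4. For these, Col2a1 and Col15a1 the filter favours a lower value at day 6, so their direction is no support for a fall. None of the 18 passed the test for 4OHT, and their median 4OHT difference was 0.02 at day 4 and 0.07 at day 6. Of the fibroblast and muscle markers, 4 of the 7 tested fell over time and 0 rose, against 18.8% and 35.1% of all genes. Of these 4, Dcn, Pdgfra and Pdgfrb passed the filter only through day 4, as did Vim and Thy1 of the others tested. The filter favours a lower value at day 6 for these markers too, so their direction is no support for a fall. The median day effect of the 7 markers was -0.55, beside -0.53 for the collagens, a direction that the filter favours in both. Dim genes of any kind were mostly lower at day 6. For all genes with a mean log2 level under 5 the median day difference was -0.49 in untreated and -0.40 in 4OHT organoids. At 5 to 6 it was -0.30 and -0.28, and at 6 to 7 it was 0.50 and 0.28. The part of fibroblast and muscle cells in the collagen values was not tested.

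Col6a2, a chain of the beaded filaments of type VI collagen, gave 89.3 untreated and 90.2 with 4OHT at day 4 and 34.9 and 43.0 at day 6. The arrays of a day were close and the days far apart, and it fell by 0.95 ± 0.21 (adjusted p = 0.0014). Col27a1, a fibrillar collagen known from cartilage, gave 146 and 111, then 52.5 and 67.9, and it fell by 0.92 ± 0.22 (adjusted p = 0.0027). Col16a1, which sits on fibrils, gave 131 and 111, then 49.3 and 65.6, and it fell by 0.90 ± 0.22 (adjusted p = 0.0028). In the last 2 the untreated array was the higher at day 4 and the lower at day 6, so that the fall was larger in untreated (-1.24 and -1.17) than in 4OHT organoids (-0.60 and -0.63). The spike-ins differed in the same order, as given for Lama5.

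Of the basement membrane collagens, Col15a1 and Col18a1 passed the filter, and both fell over time. Col18a1, the precursor of endostatin, gave 36.1 and 39.7 at day 4 and 13.2 and 26.0 at day 6, with a 4OHT difference of 0.09 and 0.52 (day effect -0.62 ± 0.21, adjusted p = 0.023). The second Col18a1 probe set past the filter gave 23.2, 46.4, 16.7 and 17.5, with a 4OHT difference of 0.67 and 0.03. Its day difference was -0.26 in untreated and -0.90 in 4OHT organoids, beside -0.84 and -0.41 in the probe set used. Col15a1 gave 32.5 and 40.2, then 16.02 and 14.3 (day effect -0.74 ± 0.21, adjusted p = 0.0079). In both, each day 4 value lay above each day 6 value. Col15a1 passed the filter only through day 4, so neither its call nor this order of its values is support for a direction.

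The 4 other collagens that fell were Col25a1, Col20a1, Col12a1 and Col2a1. Col25a1, a transmembrane collagen, gave 62.5 and 78.2, then 33.4 and 33.6 (day effect -0.80 ± 0.21, adjusted p = 0.005). Col20a1 gave 66.2 and 89.1, then 40.5 and 50.5 (-0.60 ± 0.21, adjusted p = 0.024), and Col12a1, which binds the surface of fibrils, 38.1 and 57.0, then 25.3 and 27.2 (-0.57 ± 0.21, adjusted p = 0.033). Col2a1, the main collagen of cartilage, gave 30.0, 17.9, 7.63 and 9.98, with only the untreated array of day 4 above the median of all values. Of the 9 collagens that passed no test, Col5a1, a chain that starts type I fibrils, gave 44.7, 45.7, 32.9 and 24.7. Col7a1, which forms the anchoring fibrils under hemidesmosomes, gave 36.8, 31.5, 31.0 and 28.3. Col1a1, the main fibrillar collagen of fibroblasts, gave 14.9, 24.0, 11.2 and 12.0 and reached the median on 1 array. Col9a1 gave 33.0 on the untreated array of day 4 and 13.2, 17.0 and 18.6 on the others, the most negative 4OHT difference of the 46 (-0.75 at day 4, 0.07 at day 6). Its second probe set gave 12.7, 29.5, 14.2 and 13.2, higher with 4OHT at day 4 (0.67) and -0.05 at day 6, and with the mean of its probe sets the 4OHT effect was -0.022. The 5 that remain, Col6a1, Col8a1, Col9a3, Col13a1 and Col22a1, had highest values of 21.7 to 33.7 and 4OHT effects of -0.19 to 0.28.

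**Figure D5:**
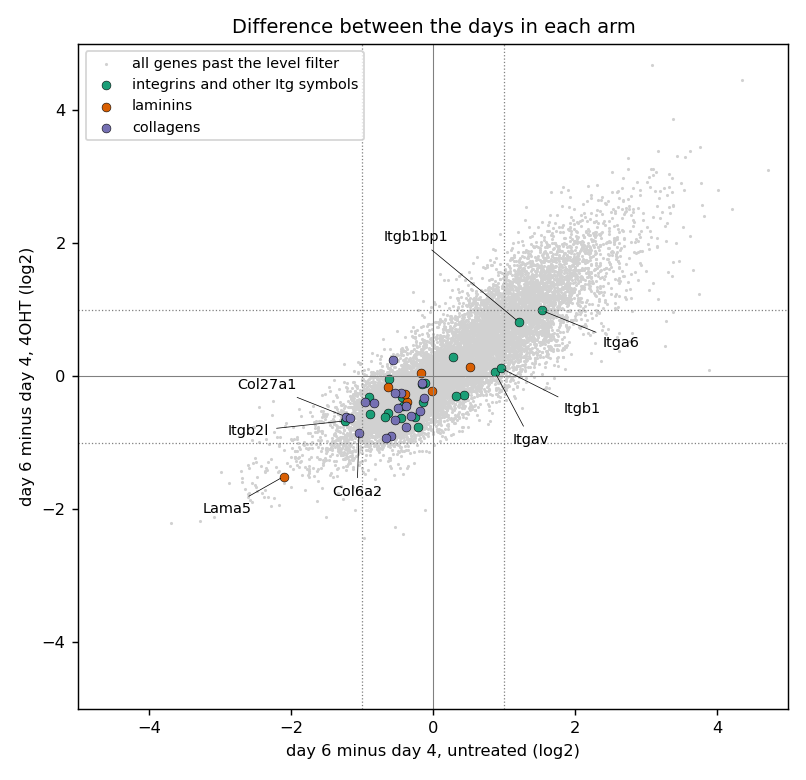
Difference between day 6 and day 4 in untreated (horizontal) and 4OHT organoids (vertical), in log2(intensity + 16), for all genes past the level filter (grey) and the 46 genes (coloured). Dotted lines mark 2-fold. Lama5 lies lowest at -2.11 and -1.51, Itga6 and Itgb1bp1 lie above 1 in untreated organoids only, and Itgb1 and Itgav lie near 0 in 4OHT organoids.

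The genes of 3 lists that act with these chains were read in the same fit. These lists were chosen with earlier results of these data known, so their counts are a description and no support for a result about such genes. Beside the counts of these lists, 0.97% of all genes rose and 2.25% fell with 4OHT. Over time 35.1% of all genes rose and 18.8% fell. Npnt, Lims2, Serpinh1 and Loxl3, which fell over time, passed the filter only through day 4. Nid2, which rose, passed it only through day 6. The day calls of these genes are no support for a direction. Of 18 tested genes of the basement membrane and its receptors outside the 3 families, 3 rose with 4OHT and 0 fell. Agrn, which encodes the basement membrane proteoglycan agrin, gave 355 untreated and 616 with 4OHT at day 4 and 407 and 832 at day 6, and it rose by 0.88 ± 0.21 (adjusted p = 0.028). Thbs1, the matrix glycoprotein thrombospondin, gave 78.8 and 283, then 14.4 and 65.6, and it rose by 1.54 ± 0.21 (adjusted p = 0.001). Smoc2, a matrix protein also known from intestinal stem cells, gave 131 and 242, then 692 and 1270, and it rose by 0.84 ± 0.21 (adjusted p = 0.036). In all 3 the 4OHT array was the higher on each day. Of 9 alternatives, 4 ended the call of Agrn, 5 that of Smoc2 and 2 that of Thbs1, with adjusted p-values of up to 0.23, 0.23 and 0.19. Over time 5 of these 18 rose and 6 fell.

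Of 23 tested proteins that link integrins to actin or form hemidesmosomes, 1 rose with 4OHT and 0 fell. Flna, the actin crosslinker filamin A, which binds integrin tails, gave 38.1 and 87.5 at day 4 and 48.8 and 149 at day 6, and it rose by 1.14 ± 0.21 (adjusted p = 0.006), a call that 3 of 9 alternatives ended (adjusted p up to 0.21). Vasp (-0.64 ± 0.21, adjusted p = 0.127) and Vcl (0.40 ± 0.21, adjusted p = 0.432), which act at focal adhesions, did not pass. Cd151, the tetraspanin partner of laminin-binding integrins, named after its values were seen, gave 190 and 372 at day 4 and 742 and 753 at day 6. The 4OHT effect of Cd151 did not pass (0.47 ± 0.24, adjusted p = 0.407). Its untreated array of day 4 was the lowest, as in the probe sets used for Itga6, Itgav, Itgb4, Itgb1, Itga3, Lamb3 and Itgb1bp1. The share of all genes with this order was not counted, so it is given as a description only. The other Itga3 probe sets were lowest on the untreated array of day 6 (39.1 and 17.7). The second Itga6 probe set was lowest with 4OHT at day 4 (127, against 132 untreated). The dimmer Itgav probe set was lowest at day 6 (9.61 and 9.63, against 13.4 untreated at day 4). Over time 7 of these 23 rose and 3 fell. Of 12 tested collagen processing enzymes, 0 rose and 0 fell with 4OHT, and 2 rose and 5 fell over time. Among those with 1 direction on both days, the 3 with the largest difference on their lesser day were Ppib (0.57 ± 0.21, adjusted p = 0.193), Crtap (-0.47 ± 0.21, adjusted p = 0.32) and Loxl3 (0.32 ± 0.21, adjusted p = 0.57).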

How the data were processed

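Total RNA of mouse Apc fl/fl intestinal organoids was labelled from 100 ng with a 3' in vitro transcription kit and hybridised to Affymetrix arrays, per the labels' protocols, with 4 arrays in 4 groups. The deposited files hold linear intensities, with 1 value from the authors for each probe set of an array. For background correction, normalization and summarisation, the method is not stated in these sources. All 4 columns were used. On each array 3798 to 4081 values are exactly those of another probe set, among them the values of 2 to 6 of the 46 genes described (Itgal and Itgax on the 4OHT array of day 4, for example); the cause was not tested.

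Of 45101 probe sets per array, 34945 name 1 gene in the platform's annotation and 932 name several; the latter and those naming none were left out. A gene (18193 in all) was represented by its probe set of highest mean log2(intensity + 16). The level filter asked that at least 1 array reach an intensity of 20.9, the median over all probe sets and arrays, and kept 13192 genes. The medians of the arrays were 22.0 and 21.9 at day 4 and 19.3 and 19.5 at day 6 (untreated and 4OHT). The number of arrays limits the precision.

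The test was limma 3.58.1 (lmFit, then eBayes, under R 4.3.3), with 4OHT and day as additive terms and Benjamini-Hochberg adjustment over 13192 genes at a threshold of 0.05. Genes past it are said to have risen or fallen ("rose", "fell"), and errors are its standard errors. Contrasts of 1 array against 1 have no p-value and are given as counts past 2-fold. In a simulation of the 4OHT effect on 13192 genes, 93 of 100 genes with a log2 change of 1 were called, 100 of 100 with one of 2, and 27 of 12992 unchanged ones. How far these counts hold for the real arrays was not tested, so they are not the power of the test on the deposited data. Tables were made with Python 3.11.15, pandas 2.3.3, numpy 2.4.6 and plots with matplotlib 3.10.9.

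The members, the companion and marker lists and the tests were chosen with earlier results of these data known. Genes given in full were those past a test, those past 2-fold in any contrast and the 2 with the highest mean level of each kind of chain, and from each companion list up to 3 with the largest smaller difference of both days in 1 direction. Values of the other genes past the filter were added after they were seen. All 81 symbols matched RefSeq; promoters are RefSeq's. Of the companion lists, 2 genes of the adhesion list and 2 of the collagen enzymes are not analysed here. Alternatives were no level filter, a filter at the 75th percentile, averaging a gene's probe sets, leaving out probe sets whose names end in _x_at or _s_at, median centring, quantile normalization, pseudocounts of 1 and 64, a 1.5-fold threshold, no day term, and each array left out. Choosing the probe set by mean intensity was added after seeing the data, as were the alternatives for day effects.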

Additional observations from a re-analysis of the deposited data

Results flagged for a closer look

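In 17 of the 46 genes past the level filter, 4OHT went with a higher value on one day and a lower value on the other. Each day is 1 array against 1, and the difference between the days is the residual error of the fit. It could therefore not be tested, and many of these values are small. The difference of the days (day 6 minus day 4) was negative in 8: it was -0.82 for Itgb1, -0.71 for Itga3, -0.55 for Itga2, -0.39 for Itgb1bp1, -0.29 for Col15a1, -0.29 for Col5a1, -0.24 for Itga2b and -0.019 for Itga10. These were the higher with 4OHT at day 4 and the lower at day 6. It was positive in 9: it was 0.81 for Col9a1, 0.63 for Col27a1, 0.60 for Itgb3, 0.58 for Itga7, 0.58 for Col2a1, 0.57 for Itgb2l, 0.54 for Col16a1, 0.48 for Lamc3 and 0.28 for Col6a1. The poly-A spike-ins also changed sign, from -0.45 at day 4 to 1.38 at day 6, and the hybridization spike-ins from -0.35 to 0.83. Whether these differences move the gene values was not tested. For Itgb1, the 2 other probe sets past the filter had the same signs on both days; for Itga3 the 3 probe sets did not share a sign on either day.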

How the results depend on the processing

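With 4OHT, 0 of the integrin, laminin and collagen genes rose and 0 fell under each alternative except the mean of all probe sets, where 1 rose (Lamb3). With no level filter, a pseudocount of 64 or no day term, 0 of all genes were called too, so the 0 says nothing there. A pseudocount of 1 called 7 risen and 40 fallen of all genes, and the others 74 to 152 and 217 to 365. Without each array in turn, in a fit with no day term that assumes a lone array varies like the other group, 0 members rose and 0 fell (range 0 to 0). Over all genes those fits called 0 to 8 risen and 0 to 57 fallen, so their zeros show no stability. For day 6 against day 4, the main counts of 2 risen and 16 fallen became 1 and 8 with the filter at the 75th percentile, which tests fewer genes, 4 risen with median centring, and 7 fallen with a pseudocount of 64. At least 2-fold higher at day 6 in untreated organoids (main 2) were 1 with the filter at the 75th percentile, with quantile normalization and with a pseudocount of 64, and 4 with median centring. At least 2-fold lower there (main 5) were 13 with a pseudocount of 1 and 1 with 64. In 4OHT organoids, 1 was 2-fold higher (main 0) with the mean of all probe sets, with median centring and with the probe set of highest mean intensity, and 2 with a pseudocount of 1. There, 5 were 2-fold lower (main 1) with quantile normalization and 9 with a pseudocount of 1. A pseudocount of 1 gave 2 genes 2-fold higher and 1 lower with 4OHT at day 4 (main 0). At 1.5-fold, 4 were higher and 1 lower with 4OHT at day 4, and 1 higher at day 6; over time 4 were higher and 15 lower in untreated and 2 higher and 14 lower in 4OHT organoids. For single genes, 433 of the alternative 4OHT effects and 332 of the day effects kept their direction and call, 14 and 22 lost the call, 1 and 11 gained it, and 7 and 11 changed sign. The 4OHT effect changed sign for Col16a1 (-0.0066) and Itga2 (0.011) with quantile normalization, Itga9 (-0.0048) and Itgb5 (-0.12) with the mean of all probe sets, Itgb1bp1 with median centring (-0.0050) and with a pseudocount of 64 (-0.015), and Itga10 with the latter (0.00024). The day effect did so with quantile normalization for Itga3 (-0.47), Itgb4 (-0.47), Lamb3 (-0.16), Itgav (-0.091), Itgb1 (-0.0082) and Lamb2 (0.027), with the mean of all probe sets for Itga3 (-0.12) and Itgb5 (0.056), with median centring for Itgb5 (0.052) and Lamb2 (0.038), and with a pseudocount of 64 for Itgb4 (-0.00049). The cause was not tested. No paired analysis was possible because each group is 1 array and the labels give no replicate numbers; day stands as a term of the fit. Genes under the median of all values are limited by signal over background, which was not measured, and no fold is given for them.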
